A study of Rattus norvegicus with 16 samples.

Results

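Ankrd1, Csrp3, Actc1, Nppa and Nppb are 5 genes best known from loaded heart muscle. They were followed across extraocular muscle and a second rat skeletal muscle labelled TA. The members were all probe sets whose only gene symbol in the array's annotation is one of these 5. A probe set is a group of short probes read together as a single intensity. The rule found 8 probe sets for the 5 genes, of 7018 probe sets with a single symbol, which stand for 4737 genes. Ankrd1, Csrp3, Actc1 and Nppb have 1 probe set each and Nppa has 4. Actc1 has 4 further probe sets that the annotation shares with Acta2, and these were not used. The 5 genes were chosen for how they differed in earlier results from these arrays, so their values below are a description, with no test.

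The study profiled gene expression in the extraocular muscles, the small muscles that move the eye. The 16 single-colour arrays form 3 groups of rat (Rattus norvegicus) skeletal muscle. EOM is extraocular muscle on 4 arrays, numbered 1 to 4, with no collection time in the labels. TA_6h is TA muscle collected at 6 hours on 8 arrays, and TA_1h is TA muscle collected at 1 hour on 4 arrays. The event from which the hours count is not stated in the labels, nor are strain, sex, age or treatment of any group. Arrays of 1 number and group were averaged and counted as 1 sample, which gave 4 EOM, 4 TA_6h and 2 TA_1h samples. The TA_6h arrays numbered 1 and 2 without a letter were taken as partners of arrays 1b and 2b, although the labels do not say so. Nothing says that the numbers are separate animals, so errors and p-values speak only of the spread among these samples, and that spread may be technical.

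In striated muscle the Z-disc anchors actin filaments and titin and also carries proteins that respond to stretch. Ankrd1, also called CARP, is an ankyrin-repeat protein that binds titin and can enter the nucleus, and its RNA is known to rise in overloaded heart and in stretched or injured skeletal muscle. Csrp3, muscle LIM protein, sits at the Z-disc and is typical of heart and slow fibres. Actc1 is cardiac alpha-actin, the alpha-actin of heart and of developing skeletal muscle. Nppa and Nppb encode the natriuretic peptides ANP and BNP, hormones released mainly by heart muscle under wall stress. They act on the guanylyl cyclase receptor Npr1 and are cleared by Npr3 and by proteases such as Mme.

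Nppb and Nppa are neighbours in the genome. In RefSeq's annotation of the rat build GRCr8 both lie on chromosome 5, Nppb at chr5:163699955-163701314 and Nppa at chr5:163712184-163713493, with 10869 bases and 0 annotated genes between them. Ankrd1 lies at chr1:243228460-243237014, Csrp3 at chr1:107664338-107682916 and Actc1 at chr3:121266291-121271827. Windows of 250 bases upstream of Nppa (chr5:163711934-163712183, plus strand) and of Nppb (chr5:163699758-163700007, plus strand) are shown because the 2 genes are neighbours. Below, their fitted differences between the muscles had opposite signs. Every Nppa value in EOM was below 0, however, so no opposite direction is read from the signs. They come from a RefSeq promoter table of GRCr8, which matched 3 of the 5 genes (Nppa, Nppb and Actc1). For Nppa the table's start is the edge of the annotated gene. For Nppb it is base 163700008, which lies 53 bases inside that edge, so the last 53 bases of the window overlap the annotated gene. Capitals mark matches, on either strand, to motifs of factors known to act on heart genes.

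Nppa: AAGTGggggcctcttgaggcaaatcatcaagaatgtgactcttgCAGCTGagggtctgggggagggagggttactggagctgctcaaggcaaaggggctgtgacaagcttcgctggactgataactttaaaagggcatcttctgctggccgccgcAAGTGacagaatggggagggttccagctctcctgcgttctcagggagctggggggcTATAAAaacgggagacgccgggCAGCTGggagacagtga
Nppb: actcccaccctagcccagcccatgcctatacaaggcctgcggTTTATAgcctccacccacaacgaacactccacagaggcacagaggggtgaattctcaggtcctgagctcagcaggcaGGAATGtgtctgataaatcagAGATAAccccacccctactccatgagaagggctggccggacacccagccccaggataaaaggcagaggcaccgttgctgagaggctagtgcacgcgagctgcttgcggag

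The motifs searched on both strands were CATTCC (known as M-CAT, bound by TEAD factors), CAGCTG (an E-box of myogenic factors), AGATAA (bound by the GATA factors), AAGTG (the core of the Nkx2-5 element), TATAAA (core promoter box), and by name the CArG box of Srf and the MEF2 box. Nppa holds CAGCTG at -206 and -17, AAGTG at -250 and -95, and TATAAA at -39, counted as the first base of each match before the table's start. Nppb holds M-CAT at -131 and TATA at -208, both on the minus strand, and AGATAA at -110, counted from its own start in the table. Of the 33469 promoters of the table, 12.1% hold M-CAT, 11.97% CAGCTG, 10.3% AGATAA, 40.6% AAGTG, 12.9% TATAAA, 1.497% the CArG box and 2.96% the MEF2 box in a window of the same length. The Actc1 window held none of the 7. No motif was shared by the Nppa and Nppb windows other than TATA, which was on opposite strands. These matches are letters in a window and not sites of binding.

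Deposited intensities are on a linear scale. On the EOM arrays 8549 of 35196 intensities, or 24.3%, lie below 0, and none does on the TA arrays, so the step that summarised the probes and the muscle cannot be told apart. Intensities under a floor of 56.5, the 25th percentile of all values, were set to it before log2. The fit took 7640 probe sets, those over the floor on 4 arrays or more, among them 7 of the 8 member probe sets. All differences below are log2 differences from that limma fit with its standard error (SE), 1 unit being a doubling. The means with SD are of intensities over samples. In bulk samples such as these, fewer cells of a type and less RNA per cell cannot be told apart.

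A pair of features of the TA arrays bear on the members. The first is a split in a control: beta-actin gave a ratio of its middle to its 3′ probe set under 0.5 on 5 TA arrays (0.232 to 0.390 on both arrays of TA_6h numbers 3 and 4, and 0.146 on TA_1h 2b), against 0.815 to 1.28 on all other arrays. These are called the low-ratio arrays below. The Gapdh control split the arrays in another way. Its ratio was 0.959 to 1.52 on the low-ratio arrays, and it was low, at 0.161 to 0.399, on 4 arrays of high beta-actin ratio (TA_1h 1a and 2a, TA_6h 1b and 2b). The 2 controls thus gave no single order of RNA quality. The second is TA_6h array 1b, which gave the highest Ankrd1 and Csrp3 values of the series. On it 13 of the 7640 probe sets stood over 4-fold above every other TA array, against 0 to 3 on the others. The skeletal muscle label held for both tissues, since all 8 fibre markers on the table were above the floor on every EOM array and at least 6 of 8 on every TA array. Myh13, the extraocular myosin heavy chain, gave 7213 to 8013 in EOM, 41.9 to 415 in TA_6h and 142 to 436 in TA_1h. Of 6 cardiomyocyte markers on the table none was at the floor throughout a group, and their summed intensity was 3972 to 5312 in EOM, 5359 to 12982 in TA_6h and 5193 to 9530 in TA_1h. Most of that sum was Myh6, at 2611 to 3792 in EOM and 3790 to 10984 in TA_6h. The markers were split. Myl7 and Ryr2 were below every TA array in EOM, Tnnt2 was above every TA array (355 to 582, against 83.0 to 328 in TA_6h), and Tnni3 and Gja1 overlapped. The part of these markers in the results was not tested.

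By group mean, Ankrd1 was lowest in EOM, intermediate in TA_1h and highest in TA_6h. In EOM its intensity was 244, 269, 271 and 320, a mean of 276 ± 31.8 (SD, n = 4). In TA_1h the arrays gave 314, 350 and 393, with 1104 on array 2b, and the mean was 540 ± 295 (SD, n = 2). In TA_6h the lowest of the 8 arrays gave 907, the median was 2003 and the highest, array 1b, gave 23783, with a mean of 4646 ± 5151 (SD, n = 4). Every TA_6h array was above every EOM array, while EOM and TA_1h overlapped at 314 to 320. EOM was lower than TA_6h by a log2 difference of -3.18 ± 0.34 (SE), or 9.09-fold. Without array 1b it was -2.60, and without that array and the low-ratio TA arrays -2.13. Against TA_1h it was -0.77 ± 0.41, or 1.70-fold, which is less than 2 times its error. Over 29 alternatives it ran from -2.01 to -0.27. With 2 TA_1h samples, these values do not settle whether EOM and TA_1h differ.

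Between the TA hours Ankrd1 differed by 2.42 ± 0.41 on the log2 scale, or 5.35-fold, with TA_6h higher. This was the 2nd largest absolute difference among the 7640 probe sets fitted. The rank is only a description, since Ankrd1 was chosen with this difference known. It was not called by limma after Benjamini-Hochberg adjustment (adjusted p = 0.471). The groups overlapped only through TA_1h array 2b, whose 1104 exceeded the 907 of TA_6h array 1. The difference was 1.83 without TA_6h array 1b and 2.79 without TA_1h array 2b. Among the 7 TA arrays of high beta-actin ratio, TA_6h gave 907 to 23783 and TA_1h 314 to 393, with no overlap and a difference of 2.95, which fell to 1.91 without array 1b. Non-overlap with TA_6h higher was found for 6.15% of probe sets within those arrays. Among the 5 arrays of low ratio, TA_6h gave 1977 to 2813 and the single TA_1h array 1104, a difference of 1.06, and 35.1% of probe sets lay that way without overlap. The high-ratio difference was 7.74-fold, or 3.75-fold without array 1b, and the low-ratio one was 2.08-fold against that single TA_1h array. Since Ankrd1 was chosen with the difference between the hours known, this split is only a description. The part of the ratio in that difference was not tested. On the 4 arrays of low Gapdh ratio Ankrd1 gave 1730 and 23783 in TA_6h and 314 and 393 in TA_1h.

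**Figure D1:**
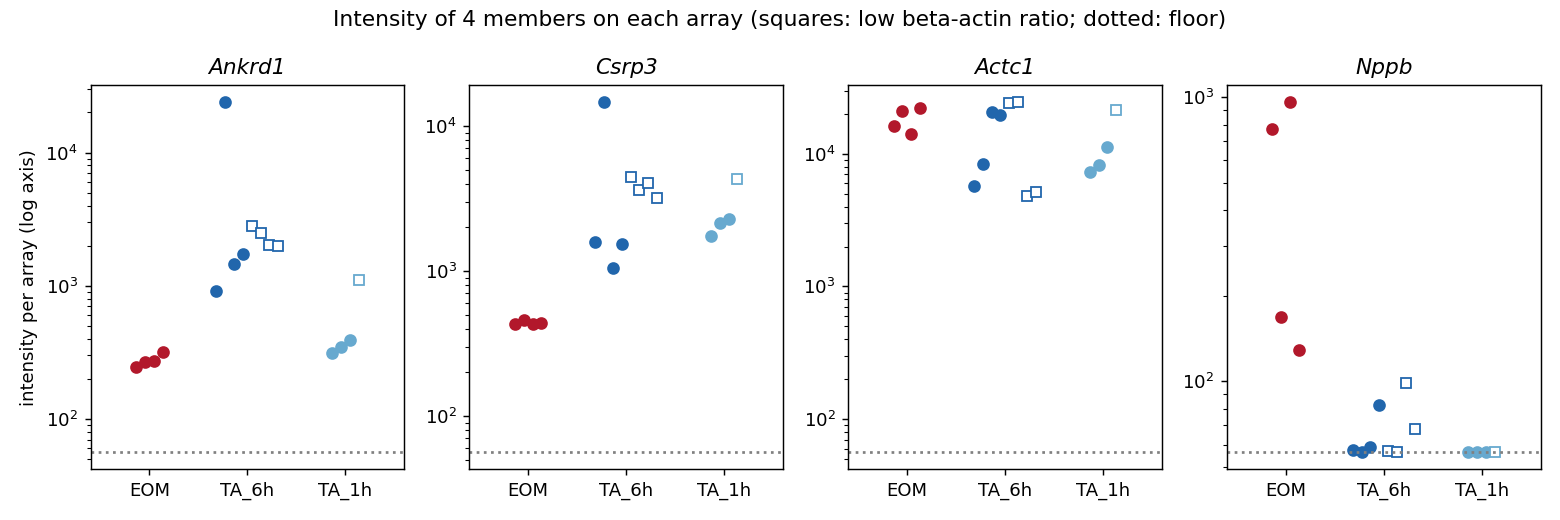
Intensity on each array (log axis) of Ankrd1, Csrp3, Actc1 and Nppb in EOM, TA_6h and TA_1h, with 1 point per array, squares for TA arrays whose beta-actin ratio is low, and values under the floor of 56.5 (dotted) drawn at it. Ankrd1 is lowest in EOM and highest in TA_6h by mean, with TA_1h overlapping both. Csrp3 sits between 431 and 460 in EOM and from 1044 up in TA, Actc1 overlaps, and Nppb is above every TA array in EOM.

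The pair of arrays that share number 1 in TA_6h disagreed on Ankrd1 by 4.71 on the log2 scale, or 26.2-fold (907 on array 1 and 23783 on array 1b). Only 2 of the 7640 probe sets differed more between these 2 arrays, where the median absolute difference was 0.326. The other 3 TA_6h pairs disagreed on Ankrd1 by 0.25, -0.18 and -0.04, each within the median absolute difference of its pair. The TA_1h pairs disagreed by 0.16 for number 1 and 1.49 for number 2, whose arrays lie on either side of the beta-actin ratio of 0.5. Whether the arrays of 1 number hold the same RNA is not stated. Over all probe sets fitted, array 1 correlated with 1b at 0.947 and with array 2 at 0.955.

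**Figure D2:**
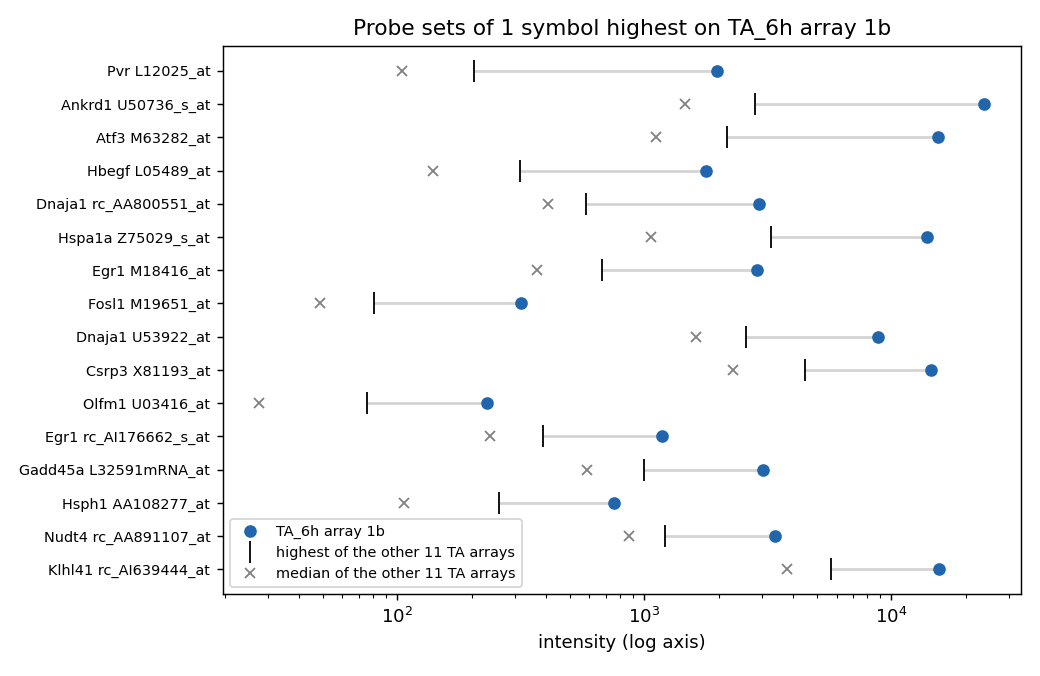
Intensity (log axis) on TA_6h array 1b (dot) of the 16 probe sets of a single symbol that stood furthest above the other 11 TA arrays, beside the highest (bar) and the median (cross) of those 11. Ankrd1 at 23783 against a highest other value of 2813, and Csrp3 at 14523 against 4459, are 2 of the 16, and Atf3 and Hspa1a are others.

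Csrp3 was lower in EOM than in both TA groups, with no overlap. The EOM arrays gave 431, 460, 433 and 438, a mean of 441 ± 13.2 (SD, n = 4). The TA_1h arrays gave 1744, 2135, 2277 and 4339, a mean of 2624 ± 968 (SD, n = 2). In TA_6h the lowest array gave 1044 and the highest 14523 on array 1b, with a mean of 4243 ± 2811 (SD, n = 4). EOM was lower than TA_6h by a log2 difference of -2.79 ± 0.38 (SE), or 6.93-fold, and than TA_1h by -2.48 ± 0.46, or 5.59-fold. The TA hours differed by 0.31 ± 0.46, less than the error. The lowest TA array held 1044 against a highest EOM array of 460.

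Within TA, Csrp3 was higher on the arrays of low beta-actin ratio at both hours, array 1b apart. The 4 TA_6h arrays of low ratio gave 3162 to 4459 and the single TA_1h array of low ratio gave 4339. The high-ratio arrays gave 1044 to 2277 apart from array 1b. Without array 1b the low-ratio TA_6h arrays were higher by 1.47, or 2.78-fold, and in TA_1h the low-ratio array was higher by 1.09. For Ankrd1 the same differences were 0.80, or 1.75-fold, in TA_6h and 1.65 in TA_1h. Within the high-ratio arrays the Csrp3 difference between the hours was 0.27, and -0.58 without array 1b. What the beta-actin split reflects, and its part in the TA values, was not tested. Every array of either class was above every EOM array.

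**Figure D3:**
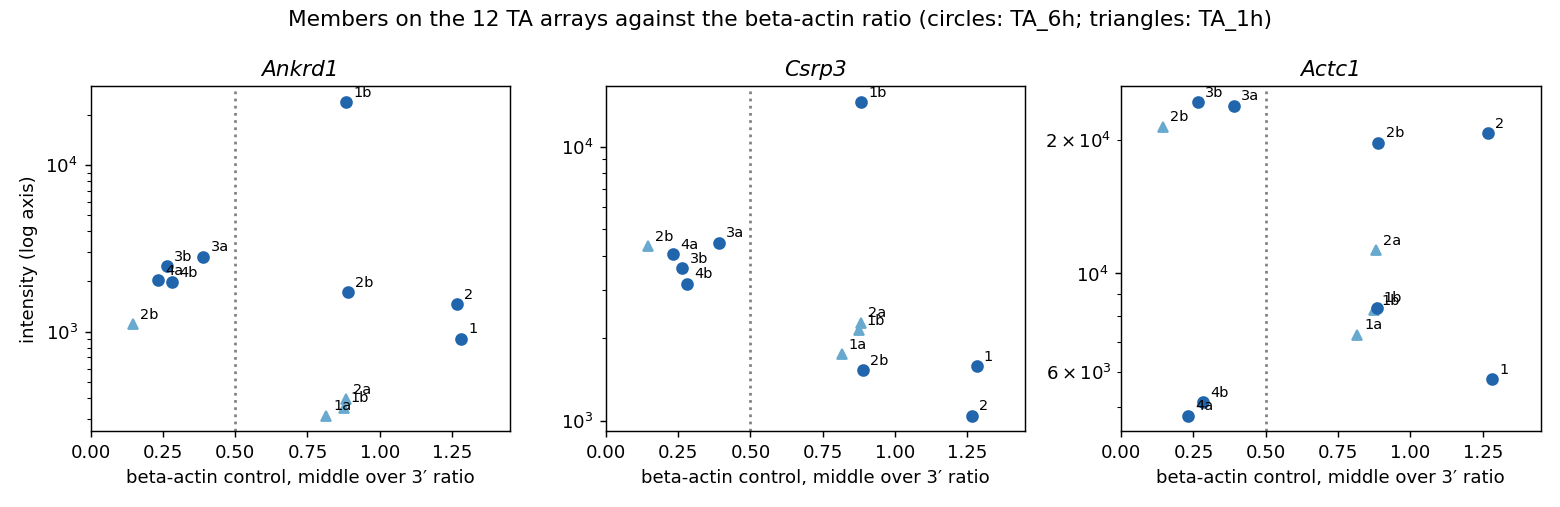
Intensity (log axis) of Ankrd1, Csrp3 and Actc1 on the 12 TA arrays against the middle over 3′ ratio of the beta-actin control, circles for TA_6h and triangles for TA_1h, with the array's number and letter; the dotted line marks 0.5. In Ankrd1 the TA_1h triangles lie under the TA_6h circles on both sides of the line, in Csrp3 the arrays left of the line hold 3162 to 4459, and Actc1 splits on both sides.

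Actc1 did not separate the muscles. The EOM arrays gave 16120, 21187, 14179 and 22225, a mean of 18428 ± 3891 (SD, n = 4). TA_1h gave 7268, 8251, 11303 and 21471, with a mean of 12073 ± 6100 (SD, n = 2). TA_6h ran from 4771 to 24398 with a mean of 14106 ± 9534 (SD, n = 4), and the groups overlapped in every comparison. EOM was higher than TA_6h by 0.67 ± 0.50 (SE) and than TA_1h by 0.72 ± 0.61, and the TA hours differed by 0.05 ± 0.61. In TA_6h the spread lay between numbers and not within them. Numbers 1 (5760 and 8359) and 4 (4771 and 5119) were low, and numbers 2 (20739 and 19737) and 3 (23967 and 24398) were high. The paired arrays of TA_6h differed by 0.54, -0.07, 0.03 and 0.10 for numbers 1 to 4. Both levels occurred on low-ratio arrays, with number 3 high and number 4 low.

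Nppb was the only member above every TA array in EOM. The EOM arrays gave 774, 169, 958 and 129, a mean of 507 ± 421 (SD, n = 4), so that numbers 1 and 3 were high and 2 and 4 several fold lower. In TA_6h the arrays gave 46.0 to 98.6, with 6 of 8 above the floor and a mean of 65.3 ± 14.6 (SD, n = 4). In TA_1h they gave 34.6 to 50.4 and none was above the floor. EOM was higher than TA_6h by 2.44 ± 0.60 (SE), or 5.44-fold, and 6.31-fold higher than TA_1h with TA_1h raised to the floor. Over 27 alternatives the log2 difference from TA_1h ran from 2.15 to 3.15. The lowest EOM array, 129, was above the highest TA array, 98.6. The TA hours differed by 0.21 ± 0.74, with TA_1h at the floor throughout.

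Nppa gave no positive value in EOM on any of its 4 probe sets. The probe set E00775cds_s_at gave -274 ± 42.7 in EOM (SD, n = 4) and was above the floor on every TA array, at 220 ± 88.1 in TA_6h (SD, n = 4) and 175 ± 83.9 in TA_1h (SD, n = 2). E00903cds_s_at gave -1175 ± 451 in EOM, 116 ± 54.8 in TA_6h with 7 of 8 arrays above the floor, and 94.5 ± 28.6 in TA_1h with 3 of 4 above. X01118_at gave -125 ± 37.7 in EOM, 51.4 ± 19.2 in TA_6h with 3 of 8 above, and 54.6 ± 16.3 in TA_1h with 2 of 4 above. E00698cds_s_at gave -267 ± 44.9 in EOM, and no array of any group was above the floor, so it was not fitted. All 4 probe sets thus had the EOM arrays below the TA arrays, also the one above the floor on no array. Since no TA value of any probe set was below 0, an EOM value below 0 lies under every TA array in any case. This order alone is therefore no measure of Nppa.

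The size of the Nppa difference depends on the floor. With EOM raised to the floor, TA_6h was 3.51-fold higher than EOM by E00775cds_s_at. That log2 difference, EOM minus TA_6h, ran from -3.83 to -0.67 over 28 alternatives. EOM was lower by -0.92 ± 0.29 (SE) on the log2 scale by E00903cds_s_at, and the difference by X01118_at was -0.20 ± 0.17. The E00903cds_s_at value depended on the floor, at -2.90 with the floor at the 10th and -0.15 at the 40th percentile, and on the low-ratio TA arrays, without which it was -0.40. It was called in 20 of 28 alternatives, and not when any 1 EOM number or TA_6h number 3 was left out. Against TA_1h the EOM differences of these 3 probe sets were -1.42 ± 0.38, -0.68 ± 0.36 and -0.26 ± 0.20. The TA hours differed by 0.39 ± 0.38, 0.23 ± 0.36 and -0.07 ± 0.20. E00775cds_s_at ran from 99.7 to 252 on the high-ratio TA_6h arrays and from 229 to 371 on the low-ratio ones. With 24.3% of all EOM values below 0, a value below 0 says that no signal was measured, not that the RNA is absent.

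**Figure D4:**
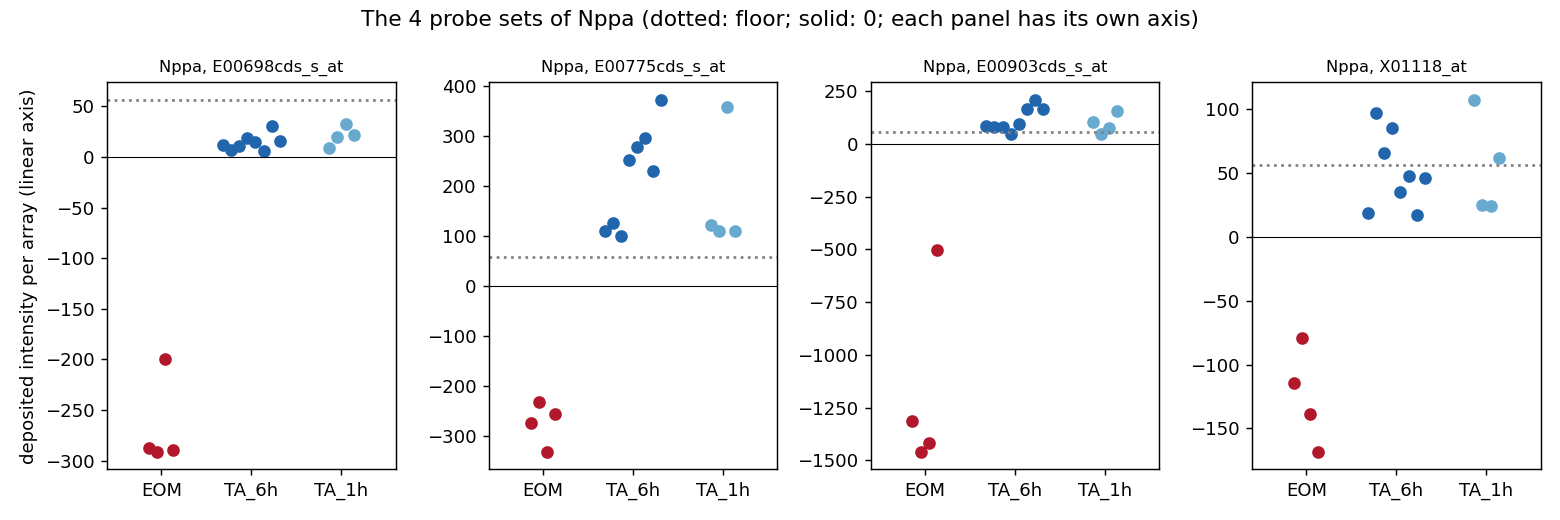
Deposited intensity on each array (linear axes, 1 panel per probe set with its own range) of the 4 Nppa probe sets in EOM, TA_6h and TA_1h, with 0 as a solid and the floor of 56.5 as a dotted line. The EOM points lie below 0 in all 4 panels, and only E00775cds_s_at is above the floor on every TA array.

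Counted over the 7 member probe sets fitted, 1 was called higher in EOM than in TA_6h at an adjusted p under 0.05 (Nppb) and 4 lower (Ankrd1, Csrp3 and the Nppa probe sets E00775cds_s_at and E00903cds_s_at). In all, 47.2% of probe sets were called in this comparison, 21.9% higher and 25.3% lower in EOM. Against TA_1h, 1 member probe set was called higher and 2 lower (Csrp3 and E00775cds_s_at), beside 37.2% of all probe sets, 17.7% higher and 19.5% lower. Between the TA hours 0 of 7640 probe sets were called by limma (0%), with 424 at an unadjusted p under 0.05. Arrays did not overlap, with EOM lower, for 5 member probe sets against TA_6h and 4 against TA_1h, beside 24.3% and 28.1% of all. With EOM higher it was Nppb in both comparisons, beside 16.6% and 21.2%. The Nppa probe sets counted with EOM lower have EOM values below 0, which lie under any TA value. No member was free of overlap between the TA hours, where 0.654% of all probe sets were with TA_6h higher and 0.602% with it lower. Since the genes were chosen on these comparisons, nothing is read from the counts.

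**Figure D5:**
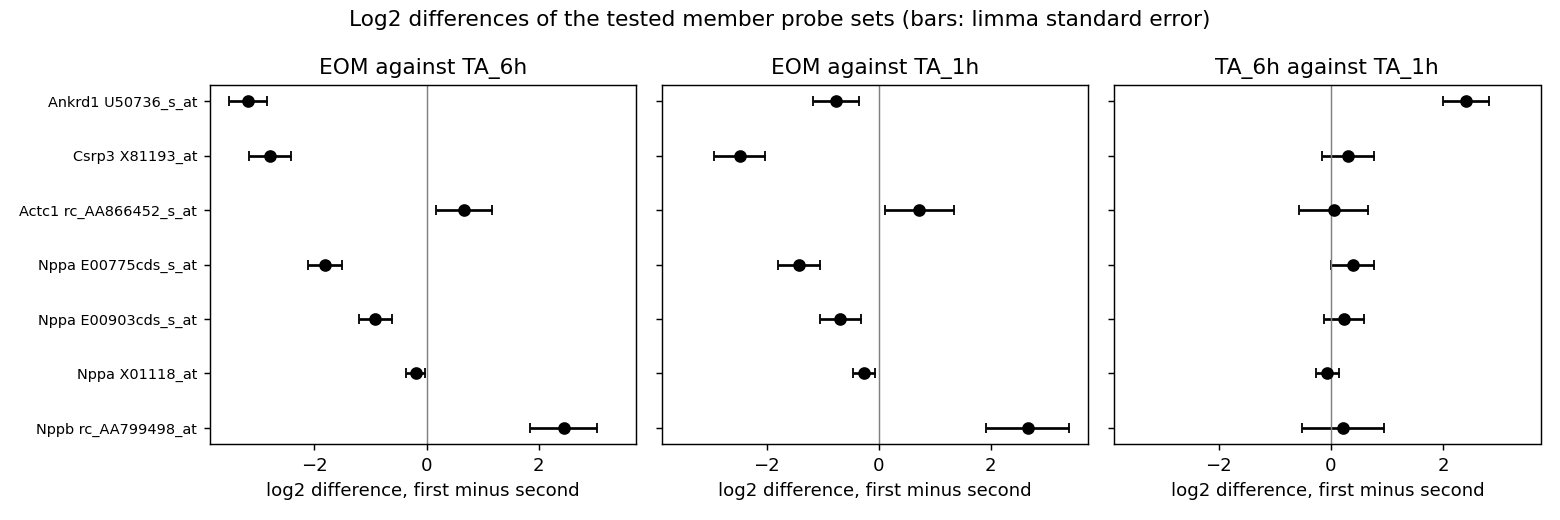
Log2 differences of the 7 fitted member probe sets in the 3 comparisons, first group minus second, with bars for the limma standard error over 4 EOM, 4 TA_6h and 2 TA_1h samples. Ankrd1 lies at 2.42 between the TA hours, a difference that was not called. Csrp3 departs from 0 against both TA groups. Nppa and Nppb lie on opposite sides of 0 where EOM is compared, Nppa with EOM values below 0 raised to the floor.

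Partners of these genes were taken from 6 lists of genes of the same pathways, each gene by its probe set of highest mean. For reference, 22.1% of 4317 genes were called higher and 26.1% lower in EOM than in TA_6h, and 18% and 19.7% against TA_1h. The median log2 difference of all probe sets was -0.11 against TA_6h and -0.09 against TA_1h. The lists were chosen with earlier results of these data known. Adjusted p-values are from limma with Benjamini-Hochberg adjustment over the 7640 probe sets.

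Of 19 measured genes of Z-disc and related proteins, 4 rose and 10 fell in EOM against TA_6h, with a median of -0.64, and 4 and 8 did against TA_1h. Flnc, the filamin of muscle, was lower in EOM by a log2 difference of -2.45 ± 0.22 (SE; adjusted p = 1.9e-05). Trim63, the ubiquitin ligase MuRF1, was lower by -2.41 ± 0.63 (adjusted p = 0.0105), a value that was -1.16 without the low-ratio TA arrays and -3.66 against those arrays alone. Fhl2, a LIM-domain protein of heart, was higher by 2.13 ± 0.20 (adjusted p = 2.19e-05). Only 1 of 8 TA_6h arrays was above the floor, and over 27 alternatives the Fhl2 difference ran from 1.04 to 2.77. Csrp1, a relative of Csrp3 found in smooth muscle and named outside the rule for its kinship, was higher by 1.79 ± 0.19 (adjusted p = 5.3e-05). Csrp3 and Csrp1 thus lay on opposite sides. Summed smooth muscle markers gave 4681 to 6493 in EOM, 2595 to 13478 in TA_6h and 3825 to 7337 in TA_1h. In TA_6h array 1b was highest. Acta2 made up most of that sum, at 3975 to 4838 in EOM and 1596 to 12652 in TA_6h. The markers differed in direction. Myh11 was above every TA array in EOM (586 to 1154, against 8.92 to 339 in TA_6h). Tagln overlapped, and Cnn1 was below 0 on all EOM arrays. The part of these markers in the Csrp1 difference was not tested.

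Of 11 measured genes that process or receive natriuretic peptides, 3 rose and 3 fell in EOM against TA_6h, with a median of -0.15, and 3 and 1 did against TA_1h. Mme, neprilysin, which degrades ANP, was higher by 1.88 ± 0.29 (SE; adjusted p = 0.000545). Ide, another peptide-degrading enzyme, was higher by 1.61 ± 0.29 (adjusted p = 0.00144). Pde3a, a phosphodiesterase that cGMP inhibits, was lower by -2.11 ± 0.53 (adjusted p = 0.0092), with 1 of 4 EOM arrays above the floor. That call was lost without the low-ratio TA arrays (-1.79, adjusted p = 0.0831) and against those arrays alone (-2.43, adjusted p = 0.0581).

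Of 8 measured actins and regulators of actin, 2 rose and none fell in EOM against TA_6h, with a median of 0.70. These were the cytoplasmic actins Actg1 (1.22 ± 0.35, SE; adjusted p = 0.0173) and Actb (0.97 ± 0.29; adjusted p = 0.0191). Without the TA arrays of low ratio they gave 0.53 and 0.44, the latter not called (adjusted p = 0.0652). Without TA_6h number 3 neither was called, at 1.05 (adjusted p = 0.0505) and 0.82 (adjusted p = 0.0541). Against TA_1h 1 gene was called, skeletal alpha-actin Acta1, higher by 3.80 ± 0.90 (adjusted p = 0.00837), although it is the main actin of both muscles. Its probe set ran from 7.17 to 31652 on the TA_1h arrays, from 94.9 to 24227 in TA_6h and from 13880 to 19931 in EOM.

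Among 17 measured cardiac and slow-fibre contractile genes, 5 rose and 7 fell in EOM against TA_6h, with a median of -0.13, and 4 and 4 did against TA_1h. Myl4, the atrial and embryonic light chain, was higher by 2.81 ± 0.25 (SE; adjusted p = 1.44e-05). Pln, phospholamban, which restrains the calcium pump of heart and slow fibres, was higher by 2.43 ± 0.25 (adjusted p = 4.35e-05). Myl3, the ventricular and slow light chain, was lower by -1.83 ± 0.24 (adjusted p = 0.000191). Called genes of this list therefore lay on both sides.

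Of 12 measured transcription factors known to act on such promoters, 1 rose and 7 fell in EOM against TA_6h, with a median of -1.16, and 2 and 4 did against TA_1h. Myog, myogenin, was at the floor on all EOM arrays and at that floor lower by -3.80 on the log2 scale, which is 13.9-fold (SE 0.29, adjusted p = 6.39e-06). Over 28 alternatives the Myog difference ran from -5.81 to -2.54. Nkx2-5, the cardiac homeobox factor, was lower by -3.05 ± 0.33 (adjusted p = 5.18e-05), with 2 of 4 EOM arrays above the floor. Fos, an immediate-early factor, was lower by -1.61 ± 0.51 (adjusted p = 0.0253). The Fos call was lost under 5 alternatives, among them without TA_6h number 1 (-1.40, adjusted p = 0.0664) or number 2 (-1.55, adjusted p = 0.0574).

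Of 20 measured genes of load signalling, 1 rose and 8 fell in EOM against TA_6h, with a median of -0.34, and 1 and 6 did against TA_1h. Mapk14, the stress kinase p38 alpha, was lower by -2.09 ± 0.19 (SE; adjusted p = 1.65e-05). Gsk3b, a kinase that restrains hypertrophy, was lower by -1.94 ± 0.40 (adjusted p = 0.00319). Ace, the angiotensin-converting enzyme, was higher by 1.83 ± 0.26 (adjusted p = 0.000319). Between the TA hours no gene of any of the 6 lists was called, where the background was 0% as well.

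Profiles most like each member's were sought over the 10 samples among 4312 genes, as the smallest root mean square difference of log2 values centred on each gene's mean. For Ankrd1 they were Rps2-ps1 (0.55), Cpz (0.61) and Pla1a (0.75), where the median gene differed by 1.55. For Csrp3 they were Haao (0.34), Zswim8 (0.40) and Pnck (0.40), beside a median of 1.42. For Actc1 they were Csf1 (0.42), Ginm1 (0.45) and Scg5 (0.45), beside 0.94. For Nppa, by E00775cds_s_at, they were Rpl3l (0.11), Npepps (0.17) and Fbxw5 (0.19), beside 0.98, all with EOM at or near the floor. For Nppb they were Xcl1 (0.34), Rgs18 (0.63) and Crybb1 (0.66), beside 1.58. Nppb was at the floor throughout TA_1h. Rgs18 differed by 2.95 from both TA groups and by 0 between them, as values raised to the floor do, so the floor enters that likeness. Rps2-ps1, the profile nearest to Ankrd1, differed by -2.89 between EOM and TA_6h and by 2.10 between the TA hours. The members were left out of this search, so it does not compare them with each other.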

How the data were processed

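RNA of rat EOM, TA_6h and TA_1h muscle was measured on 16 single-colour arrays of 8799 probe sets, 59 of them controls. The authors deposited intensities on a linear scale; the sources used here do not say how probes were summarised. The mean of each array without its extremes was 800, so the deposited values were not scaled again. Values under 56.5 were raised to it and log2 taken, probe sets above it on at least 4 arrays were kept, and arrays of 1 number and group averaged. All 3 groups were fitted together with lmFit and eBayes of limma 3.58.1 (R 4.3.3). The fit had 7 residual degrees of freedom and 2.83 prior ones. Benjamini-Hochberg adjustment ran over 7640 probe sets. The fit was tested on simulated data. The number of arrays limits the precision.

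Symbols come from GEO's platform annotation: 7018 probe sets have 1, 308 several and 1473 none listed. Of the 7018, 6994 matched a RefSeq gene number and no symbol changed. The members and lists were chosen with earlier results of these data known. Named genes were the members, up to 3 called genes per list with the largest difference from TA_6h, and the 3 nearest profiles of each member; others are said to be outside this rule. There were 26 planned and 3 added alternatives. Deviations of same-numbered EOM and TA_6h samples from their group means correlated at 0.0206 to 0.105, so numbers were not taken as pairs. For all 4 EOM samples the own number still gave the highest correlation. Figures used matplotlib 3.10.9 in Python 3.11.15.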

Additional observations from a re-analysis of the deposited data

Results flagged for a closer look

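In all, 32 sets of 4 or 8 values were examined: each member probe set in each group by array, and in TA_6h also by number. Of these, 8 held a value set apart from the rest by more than Dixon's limit. Chance reaches that limit in about 1 in 20 sets if values are normal. These were linear intensities, and the TA_6h sets by array and by number share values, so the 8 are not set against that rate. In TA_6h, array 1b gave 23783 for Ankrd1 while the others lay between 907 and 2813. Averaged with its partner, TA_6h number 1 gave 12345 against 1593 to 2644 for the other 3 numbers. The same array gave 14523 for Csrp3, against 1044 to 4459. In TA_1h, array 2b gave 1104 for Ankrd1 against 314 to 393, and it has the lowest beta-actin ratio of the series, 0.146. It also gave the lowest Nppb value, 34.6 against 49.1 to 50.4, all under the floor. For Nppa, TA_1h array 2a gave 358 on E00775cds_s_at against 109 to 122. EOM number 3 gave -199.6 on E00698cds_s_at against -291 to -288, and EOM number 4 gave -505 on E00903cds_s_at against -1460 to -1315, all below 0.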

How the results depend on the processing

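No called member difference, and none of the 17 list genes that the rule named against TA_6h, changed direction in the 27 to 29 alternatives each could be fitted under; Csrp1 and Acta1 were not among those 17. As a description of genes chosen on this comparison, Ankrd1 in EOM against TA_6h ran from -3.40 to -2.13 (log2) and Csrp3 from -3.22 to -1.68. The Ankrd1 difference between the TA hours ran from 1.06 to 2.91. In EOM against TA_6h, Nppb, the 1 member probe set called higher, was filtered out and not fitted under 2 alternatives. These were the floor at the 40th percentile and all 16 arrays required above the floor. It was called in 25 of the 27 that fitted it. The call was lost with the low-ratio arrays alone as TA, and without array 1b and the low-ratio arrays (chosen after seeing the data). The 4 called lower became 2 under the first 2 of these. With all 16 arrays required, the Nppa probe sets were not fitted either. In EOM against TA_1h, Nppb was again not fitted under the first 2 and was not called with the low-ratio arrays alone. The count called higher was 0 to 1 when 1 number was left out, being 0 without TA_1h number 1 or 2. The 2 called lower became 1 under the first 2, 4 with a floor at the 10th percentile, with log2(value + 50) and with the low-ratio arrays alone, and 1 to 2 when 1 number was left out. List genes called higher there went from 15 to 9 with all 16 arrays required above the floor and to 24 with the low-ratio arrays alone. Between the TA hours the 0 members called higher became 1 with the low-ratio arrays alone (Nppa, E00775cds_s_at) and 1 without TA_1h array 2b (Ankrd1, 2.79; chosen after seeing the data). The 0 list genes called higher became 1 without the low-ratio arrays (Myog), 2 with the ratio as a batch term (Myog and Jun) and 9 with the low-ratio arrays alone. Those called lower went from 0 to 3 with the low-ratio arrays alone (Tpm1, Smpx and Tmod1), where a single TA_1h array is assumed to vary like the other groups, and to 1 without array 1b and the low-ratio arrays (Ccn1). These genes are named after their values were seen. With the number as a fixed replicate block the Ankrd1 differences were -3.18 against TA_6h and 2.43 between the hours, and members called were 1 higher and 4 lower, as without it. After each group's mean was subtracted, all 4 EOM samples correlated best with the TA_6h sample of their own number. These correlations were only 0.0206 to 0.105, a hint from the data and not the design. Values near the floor, in EOM above all, limit the folds of Nppa and Nppb.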

Other observations

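TA_6h array 1b also held the highest TA values of the genes that follow, which are named after their values were seen. Atf3, a stress-induced factor, gave 15432 against a highest other TA value of 2171. Hspa1a, the inducible Hsp70, gave 14005 against 3261. The co-chaperone Dnaja1 gave 2906 against 583 on one probe set and 8840 against 2584 on another. The immediate-early factor Egr1 gave 2850 against 673, the growth factor Hbegf 1772 against 314, and Fosl1 318 against 80.9. Among muscle genes on the same array, Flnc gave 16601 against 6336, Klhl41 15624 against 5675 and the myogenic factor Myf6 10291 against 4218. In all 54 probe sets were over 2-fold above every other TA array there, against 64 on TA_1h array 2b and 2 to 34 on the other TA arrays.

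In EOM, Nppb was 774 and 958 in numbers 1 and 3 and 169 and 129 in numbers 2 and 4, while Actc1 was 16120 and 14179 in the former and 21187 and 22225 in the latter. Each number is a single array, and no test was made.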
